A study of Caenorhabditis elegans with 8 samples.

Results

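This account sets 2 RNA-seq libraries of Caenorhabditis elegans with high vit-2 (NL 3 and DL 2) against 3 libraries with low vit-2 (DL 1, DL 3 and DL 4), 5 of the 8 libraries in the series. The libraries were chosen by a measured value, the level of vit-2, which encodes a yolk protein, in FPKM (fragments scaled by transcript length and by sequencing depth). A vit-2-high library had at least 40 FPKM and a vit-2-low library 1.5 to 5 FPKM. The other 3 libraries, NL 1, NL 2 and NL 4, were below 1 FPKM and were left out of both sides. They are given beside the results for reference. Since a measured value of the same contrast set the sides, no test was made between them, and all differences between the sides are descriptions of these libraries.

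All libraries came from whole wild-type worms of the strain N2, grown from synchronized first-stage larvae at 20 °C for 40 h and labelled as young adults. NL worms were kept in constant darkness, and DL worms received cycles of 12 h light at 8000 lux and 12 h darkness. Each group had 4 libraries, numbered by batch. NL 3 is a constant-dark library of batch 3, DL 2 is a light-cycle library of batch 2, and the 3 vit-2-low libraries are all light-cycle libraries, of batches 1, 3 and 4. The set NL 3 against vit-2-low therefore differs in light treatment as well as in vit-2, and these cannot be told apart, whereas DL 2 against vit-2-low lies within DL. The labels do not say whether the libraries came from separate cultures, so spread between them may be technical.

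In the hermaphrodite, the germ line makes sperm in the last larval stage and then switches to oocytes for the rest of life. At the final molt the epidermis replaces the larval cuticle with an adult cuticle built from another set of collagens. In the adult, the intestine secretes vitellogenins, the yolk proteins encoded by the vit genes, which oocytes take up through the receptor RME-2. Fertilized oocytes then assemble an eggshell from components that were made before fertilization. In bulk RNA from whole worms, fewer cells of a type and less RNA per cell cannot be told apart.

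The recovered depth was 18683546 to 20446464 reads per library, and 1 read in a transcript of 1 kb was worth 0.0463 to 0.0546 FPKM. PCR-amplified reads are not independent molecules, so these steps describe counting error only. Over the 14396 genes whose mean level in the 5 libraries reached 1 FPKM, the median absolute difference between NL 3 and DL 2 was 0.35 on the log2(FPKM + 1) scale. NL 3 lay closer to each vit-2-low library, at 0.27 from DL 1, 0.30 from DL 3 and 0.27 from DL 4. DL 2 was 0.35 to 0.36 from them, and the closest pair was DL 3 and DL 4, at 0.19. The vit-2-high libraries are thus alike at particular genes and not across the transcriptome.

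Of the 4 genes used to mark an adult hermaphrodite, vit-2 and vit-6 are yolk genes and belong to the choice of libraries, so only col-19 and perm-2 bear on the label. For vit-2 the values were 51.3 FPKM in NL 3 and 119.8 in DL 2, against 3.86, 1.9 and 2.58 in DL 1, DL 3 and DL 4 and 0.354, 0.317 and 0 in NL 1, NL 2 and NL 4. The vit-2 values are the choice itself, with 51.3 the lowest value inside the high side and 3.86 the highest inside the low side. The yolk gene vit-6 had 67.1 FPKM in NL 3 and 131 in DL 2, against 2.92, 0.928 and 1.8 in the same 3 vit-2-low libraries. The adult cuticle collagen col-19, a standard marker of the larva-to-adult switch, and perm-2, which is needed for an impermeable eggshell, were higher in both vit-2-high libraries, with the values given below. Wider lists were less even. NL 3 lay within the vit-2-low range at 8 of 15 eggshell genes and 11 of 18 oocyte and maternal regulators, beside 7439 of all 14396 genes. It was above that range at 8 of 10 adult cuticle collagens, beside 26.8% of all genes. DL 2 was above it at 10 of 10 collagens, 15 of 15 eggshell genes and 16 of 18 regulators, beside 32.3%. The label of late-larval sperm making for the vit-2-low side matched the data less well. Sperm transcripts were higher in DL 2 and mostly within the vit-2-low range in NL 3, and 16 molting genes had median differences from the vit-2-low mean of 0.15 in NL 3 and 0.05 in DL 2 on the log2(FPKM + 1) scale. The sides are therefore called by vit-2.

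A gene was counted as higher when the lower of NL 3 and DL 2 was at least 2 times the highest vit-2-low library on FPKM + 1, and as lower in the mirror case. By this rule 75 of the 14396 genes were higher (0.521%) and 50 were lower (0.347%). The gap, the log2 distance between the nearest libraries of the sides, ran from 1.01 to 4.32 among the higher genes and from -1.01 to -2.35 among the lower genes. With any gap allowed, 1625 genes were higher without overlap (11.3%) and 1386 lower (9.63%). A single library departed from all 3 vit-2-low libraries by 2-fold more often. NL 3 was above them at 317 genes (2.2%) and below at 172 (1.19%), and DL 2 was above at 728 genes (5.06%) and below at 0.959% of genes. Leaving out 1 library raised the counts, as the rule is easier to pass with fewer libraries. Without NL 3 there were 745 higher and 141 lower genes, without DL 2 there were 370 and 174, and without DL 1 there were 144 and 169. Without DL 3 there were 94 and 80. Within the vit-2-low side, DL 1 stood 2-fold above the other 2 at 163 genes and below them at 538.

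Cuticle collagens were the most frequent family by name among the 75 higher genes, with 21 members. There were also 8 piRNA loci named 21ur, 6 vitellogenins, which belong to the choice of libraries, and 3 ule genes, and no msp gene. Of the 75 genes 66 were protein coding. DL 2 was above NL 3 at 61 of the 75, which include the 6 vitellogenins, while both lie above the vit-2-low libraries by the rule itself. The share of all genes with DL 2 above NL 3 was not counted. The left-out NL libraries were all below the lower vit-2-high library at 63 of the 75 genes, and all below the lowest vit-2-low library at 35. For these positions, too, the shares of all genes were not counted.

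The 6 vitellogenins had a summed level of 149.96 FPKM in NL 3 and 289.9 in DL 2, against 8.28, 3.96 and 6.08 in DL 1, DL 3 and DL 4. They belong to the choice of libraries and are no finding, and near-identical copies such as vit-3, vit-4 and vit-5 may share reads. Of 9 genes that act on yolk synthesis and uptake, all of which passed the filter, none was higher or lower by the 2-fold rule. Without overlap 4 of the 9 were lower and 1, rme-2, was higher, beside 9.63% and 11.3% of all genes. DL 2 was below all vit-2-low libraries at 6 of the 9 and NL 3 at 4, beside 26.9% and 21.5% of all genes. The transcription factor gene pqm-1, the most highly expressed of them, had 32.3 FPKM in NL 3 and 25.7 in DL 2, against 48.1, 46.1 and 52.3 in DL 1, DL 3 and DL 4. Both vit-2-high libraries were below the others there, with a gap of -0.50.

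**Figure D1:**
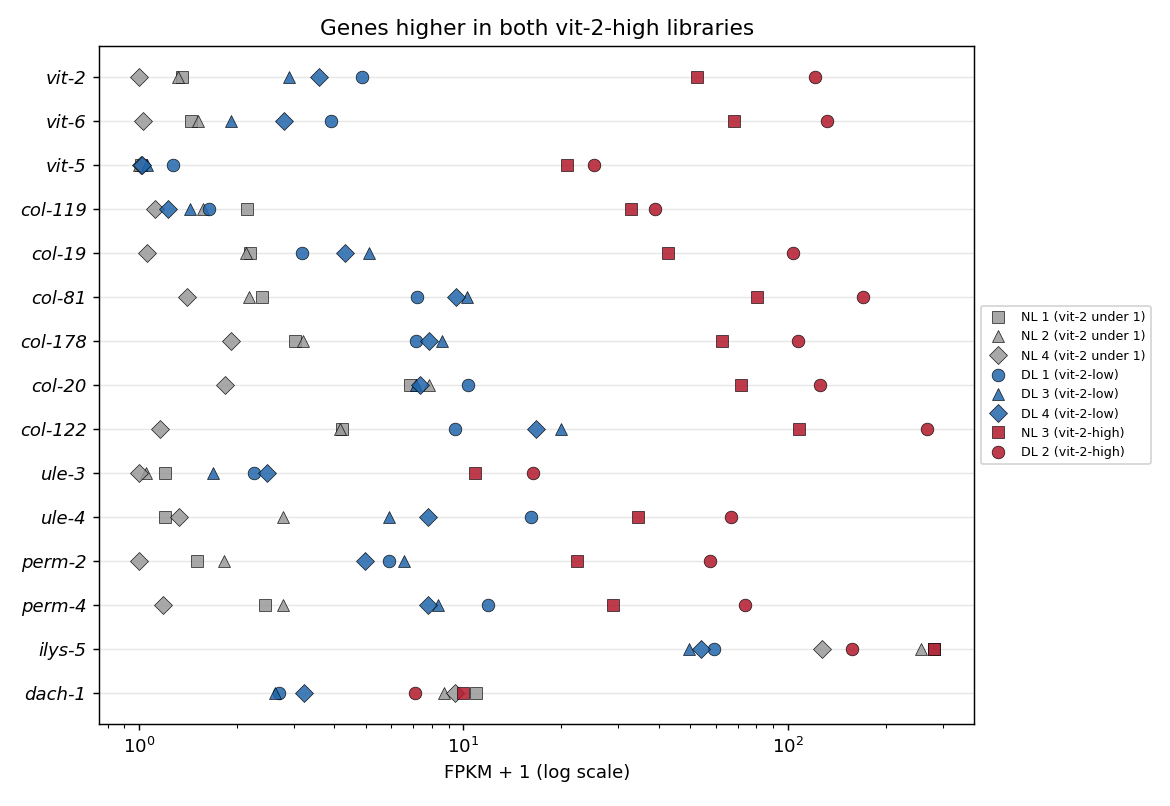
FPKM + 1 on a log axis for 15 genes counted as higher, 1 point per library, with vit-2-high libraries in red, vit-2-low in blue and the left-out NL libraries in grey. Both red points lie to the right of all blue points at each gene, while at ilys-5 and dach-1 the grey points, too, lie to the right of the blue ones.

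The gene with the widest gap of all was col-119 (IV:8978926-8979795, minus strand, WBcel235), with 31.7 FPKM in NL 3 and 37.9 in DL 2, against 0.639, 0.439 and 0.232 in DL 1, DL 3 and DL 4 and 1.16, 0.579 and 0.12 in NL 1, NL 2 and NL 4. Its gap was 4.32, and the 2 vit-2-high libraries stood alone. As its vit-2-low values were all below 1 FPKM, col-119 passed the filter only through the vit-2-high side. The marker col-19 (X:421707-422691, plus strand) had 41.8 FPKM in NL 3 and 102.98 in DL 2, against 2.19, 4.1 and 3.3 in DL 1, DL 3 and DL 4 and 1.19, 1.14 and 0.0561 in NL 1, NL 2 and NL 4. Here the vit-2-low libraries were already above the left-out NL libraries, and the gap to the vit-2-high libraries was 3.07.

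The collagen gene col-81 (II:11012397-11013767, minus strand) had 79.1 FPKM in NL 3 and 169 in DL 2, against 6.19, 9.27 and 8.47 in the vit-2-low libraries. Likewise col-122 had 107 FPKM in NL 3 and 267 in DL 2, against 8.42, 18.9 and 15.8. In both, DL 2 was more than NL 3, and neither side overlapped the other. At col-178 on the X chromosome the vit-2-low libraries were close together, with 6.15, 7.59 and 6.8 FPKM against 61.8 and 107 in NL 3 and DL 2. At col-20 on chromosome II they had 9.32, 6.15 and 6.35 FPKM against 70.9 and 125.

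All col genes were taken as a list after values were seen, and 131 of 156 passed the filter. By the 2-fold rule 21 were higher and none was lower, beside 0.521% and 0.347% of all genes. Of the higher ones, col-119, col-8, col-137 and col-152 had vit-2-low means of 0.437, 0.317, 0.963 and 0.771 FPKM. They passed the filter only through the vit-2-high side and could not have counted as lower. Of the 131 genes, 56 were higher without overlap and 0 were lower, beside 11.3% and 9.63% of all genes. Their median difference from the vit-2-low mean was 0.50 in NL 3 and 0.72 in DL 2 on the log2(FPKM + 1) scale, beside 0.01 in each over all genes. The median difference between the means of the sides was 0.70, and 0.39 with no filter over all 156 genes. The 21 higher collagens ranged from 4.23 to 267 FPKM in the vit-2-high libraries and from 0.151 to 30.8 in the vit-2-low libraries. DL 2 exceeded NL 3 at 20 of the 21, by a median ratio of 2.46. Collagen genes are a large family of similar sequences, so a value of a single member may include reads of another.

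A list of 10 collagens of the adult cuticle, which includes the strut collagens bli-1 and bli-2, held 1 gene past the 2-fold rule, col-19. The others differed mainly in DL 2. For col-38, the most highly expressed of the list, the values were 549.9 FPKM in NL 3 and 1539.6 in DL 2, against 398, 329.5 and 324 in DL 1, DL 3 and DL 4 and 50.7, 80.1 and 13.3 in NL 1, NL 2 and NL 4. NL 3 was just above the vit-2-low libraries and DL 2 far above. For bli-1 the values were 89.5 FPKM in NL 3 and 225 in DL 2, against 101, 69.9 and 75.2 in DL 1, DL 3 and DL 4, and NL 3 fell inside the vit-2-low range. The list's median difference was 0.62 in NL 3 and 2.42 in DL 2, and DL 2 was above all vit-2-low libraries at 10 of 10 genes and NL 3 at 8, beside 32.3% and 26.8% of all genes. By contrast, 0 of 6 furrow collagens, which shape the annular furrows of larval and adult cuticle, were higher or lower by the rule, and their median differences were -0.17 and -0.16.

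Products of the egg and uterus came next. The eggshell genes perm-2 and perm-4 lie within 10000 bases of each other on opposite strands (IV:1121494-1128865). For perm-2 the values were 21.3 FPKM in NL 3 and 56.7 in DL 2, against 4.91, 5.57 and 3.98 in DL 1, DL 3 and DL 4 and 0.504, 0.821 and 0 in NL 1, NL 2 and NL 4. For perm-4 they were 27.9 FPKM in NL 3 and 72.5 in DL 2, against 10.9, 7.36 and 6.8 and 1.44, 1.78 and 0.189 in the same libraries. Both genes placed the libraries in the same 3 tiers, with the left-out NL libraries lowest. An exon of C44B12.6 overlaps perm-2 on the other strand, and the library kit does not mark strand, so reads there cannot be assigned.

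The ule genes, named for secreted proteins found in the lumen of the uterus, were grouped after their values were seen. Of the 4 of 5 that passed the filter, 3 were higher, beside 0.521% of all genes, a count that the late grouping itself favours. Of these, ule-5 had 2.3 FPKM in NL 3 and 6.99 in DL 2, against 0, 0.086 and 0.0795 in DL 1, DL 3 and DL 4. It passed the filter only through the vit-2-high side. For ule-3 (V:10793798-10794924) the values were 9.84 FPKM in NL 3 and 15.3 in DL 2, against 1.26, 0.691 and 1.47 in the vit-2-low libraries and 0.206, 0.0491 and 0 in the left-out ones. For ule-4 (IV:13646396-13647658) they were 33.6 and 65.9 FPKM, against 15.1, 4.9 and 6.76 and 0.201, 1.78 and 0.33. At ule-4 DL 1 was the highest vit-2-low library, and at ule-3 it was not. Another gene of the list, ule-2, had 9.48 and 17.8 FPKM in NL 3 and DL 2 and 12, 2.94 and 4.01 in the vit-2-low libraries, where DL 1 exceeded NL 3.

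**Figure D2:**
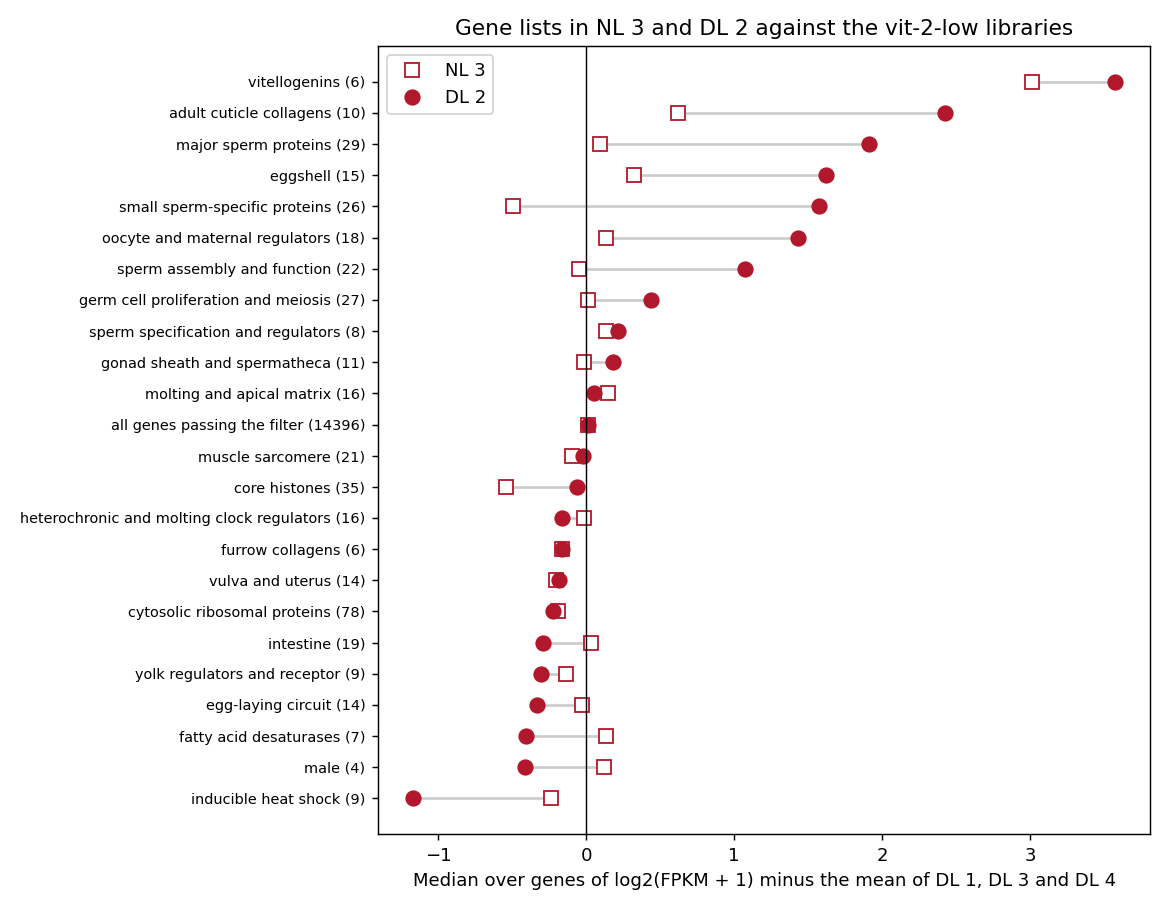
Median over the genes of each list of log2(FPKM + 1) minus the mean of DL 1, DL 3 and DL 4, with NL 3 as open squares and DL 2 as filled circles (number of genes passing the filter in brackets). The 2 libraries are farthest apart for the sperm protein, sperm assembly, oocyte, eggshell and adult cuticle lists, where DL 2 lies above NL 3. They are closer together for most other lists, among them the sperm regulators. At inducible heat-shock genes DL 2 lies below NL 3, at -1.17 against -0.24.

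Most other eggshell and oocyte genes were above the vit-2-low libraries in DL 2 alone or by a small margin in NL 3. Of 15 eggshell genes, 2 were higher by the rule (perm-2 and perm-4), DL 2 was above all vit-2-low libraries at 15 and NL 3 at 7, beside 32.3% and 26.8% of all genes, and the median differences were 1.62 in DL 2 and 0.32 in NL 3. The chondroitin proteoglycan gene cpg-2 had 48.5 FPKM in NL 3 and 162 in DL 2, against 35.3, 43.6 and 34.1 in DL 1, DL 3 and DL 4 and 26.6, 24.8 and 10.3 in NL 1, NL 2 and NL 4. The oocyte yolk receptor gene rme-2 had 11.6 FPKM in NL 3 and 36.9 in DL 2, against 11.3, 10.8 and 7.11 in DL 1, DL 3 and DL 4 and 4.66, 4.57 and 3.26 in NL 1, NL 2 and NL 4. At both genes NL 3 was just above the vit-2-low libraries and DL 2 well above NL 3, with the left-out NL libraries lowest.

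Of 20 oocyte and maternal regulators, which include the RNA-binding proteins that hold maternal messages silent, 18 passed the filter and 0 were higher or lower by the rule. DL 2 was above all vit-2-low libraries at 16 of them, beside 32.3% of all genes, and NL 3 at 5, a share near its 26.8% of all genes. The Y-box protein gene cey-2, the most highly expressed, had 224 FPKM in NL 3 and 473 in DL 2, against 201, 189 and 134 in DL 1, DL 3 and DL 4. The RNA-binding protein gene puf-5 had 7.8 and 33.4 FPKM in NL 3 and DL 2, against 7.99, 7.92 and 4.9. NL 3 thus stood with the vit-2-low libraries at puf-5, although its yolk transcripts were far above theirs. The RNA-binding regulator lin-41, which acts in oocyte growth, had 24.3 and 20.2 FPKM in NL 3 and DL 2, against 22.2, 19.2 and 16.3. There NL 3 was above the vit-2-low libraries and DL 2 inside their range.

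Sperm transcripts showed the same split between NL 3 and DL 2. The 31 major sperm protein genes encode the cytoskeletal protein that drives sperm crawling and that signals to oocytes, and 29 passed the filter. They summed to 1248 FPKM in NL 3 and 4451 in DL 2, against 1205, 1236 and 941 in DL 1, DL 3 and DL 4, and 70.5, 95.9 and 16.3 in NL 1, NL 2 and NL 4. DL 2 was above all vit-2-low libraries at 29 of 29, beside 32.3% of all genes. NL 3 was above them at 8, a share near its 26.8% of all genes, and inside their range at 19. None was higher or lower by the 2-fold rule. Their near-identical sequences mean that reads may be split among copies, which is why the sum is given.

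For msp-31, the most highly expressed of them, the values were 90.5 FPKM in NL 3 and 333 in DL 2, against 86.2, 110.0 and 73.2 in DL 1, DL 3 and DL 4 and 5.66, 9.45 and 2.04 in NL 1, NL 2 and NL 4. For msp-10 they were 10.1 FPKM in NL 3 and 52.9 in DL 2, against 18.5, 13.1 and 12.7 in DL 1, DL 3 and DL 4, and NL 3 was the lowest of the 5. Sperm transcripts were therefore present on both sides, highest in DL 2 and lowest in the left-out NL libraries.

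Genes of sperm assembly and function, 22 of 24 past the filter, had a median difference of -0.05 in NL 3 and 1.07 in DL 2. The sperm protein phosphatase gene gsp-3 had 35.5 FPKM in NL 3 and 90.7 in DL 2, against 31.6, 34 and 27.7 in DL 1, DL 3 and DL 4 and 3.85, 5.06 and 0.515 in NL 1, NL 2 and NL 4. The symbol msd-1, which stands for a major sperm protein domain, belongs to more than 1 locus, and the locus WBGene00009684 was the sperm gene that passed the 2-fold rule. It had 4.27 FPKM in NL 3 and 6.73 in DL 2, against 1.12, 0.662 and 1.38 in DL 1, DL 3 and DL 4. At the locus WBGene00009680 of the same symbol NL 3 lay inside the vit-2-low range, with 5.94 and 33 FPKM in NL 3 and DL 2 against 8.14, 8.44 and 3.67, and reads may be split between these copies. The small sperm-specific proteins, 26 of 30 past the filter, had the lowest median in NL 3 among the sperm lists at -0.50, against 1.58 in DL 2. NL 3 was below all vit-2-low libraries at 8 of these 26 genes and DL 2 at 0, beside 21.5% and 26.9% of all genes.

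Of 8 regulators that commit germ cells to sperm, 7 overlapped between the sides, a share near the 79.1% of all genes, and none was higher or lower by the 2-fold rule. They had median differences of 0.13 in NL 3 and 0.21 in DL 2. For fog-3, which directs germ cells to the sperm fate, the values were 12.3 FPKM in NL 3 and 7.52 in DL 2, against 9.14, 6.62 and 7.13 in DL 1, DL 3 and DL 4 and 12.5, 17.8 and 11.2 in NL 1, NL 2 and NL 4. For spe-44, a transcription regulator of sperm genes, they were 11.7 FPKM in NL 3 and 15.4 in DL 2, against 12.6, 9.85 and 8.85 in DL 1, DL 3 and DL 4. Both overlapped, and for fog-3 the left-out NL library NL 2 had the highest value. At genes of germ cell proliferation and meiosis DL 2 was above all vit-2-low libraries at 26 of 27, beside 32.3% of all genes, with a median difference of 0.44. NL 3 was above at 9, near its 26.8% of all genes, and its median of 0.01 was that of all genes.

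**Figure D3:**
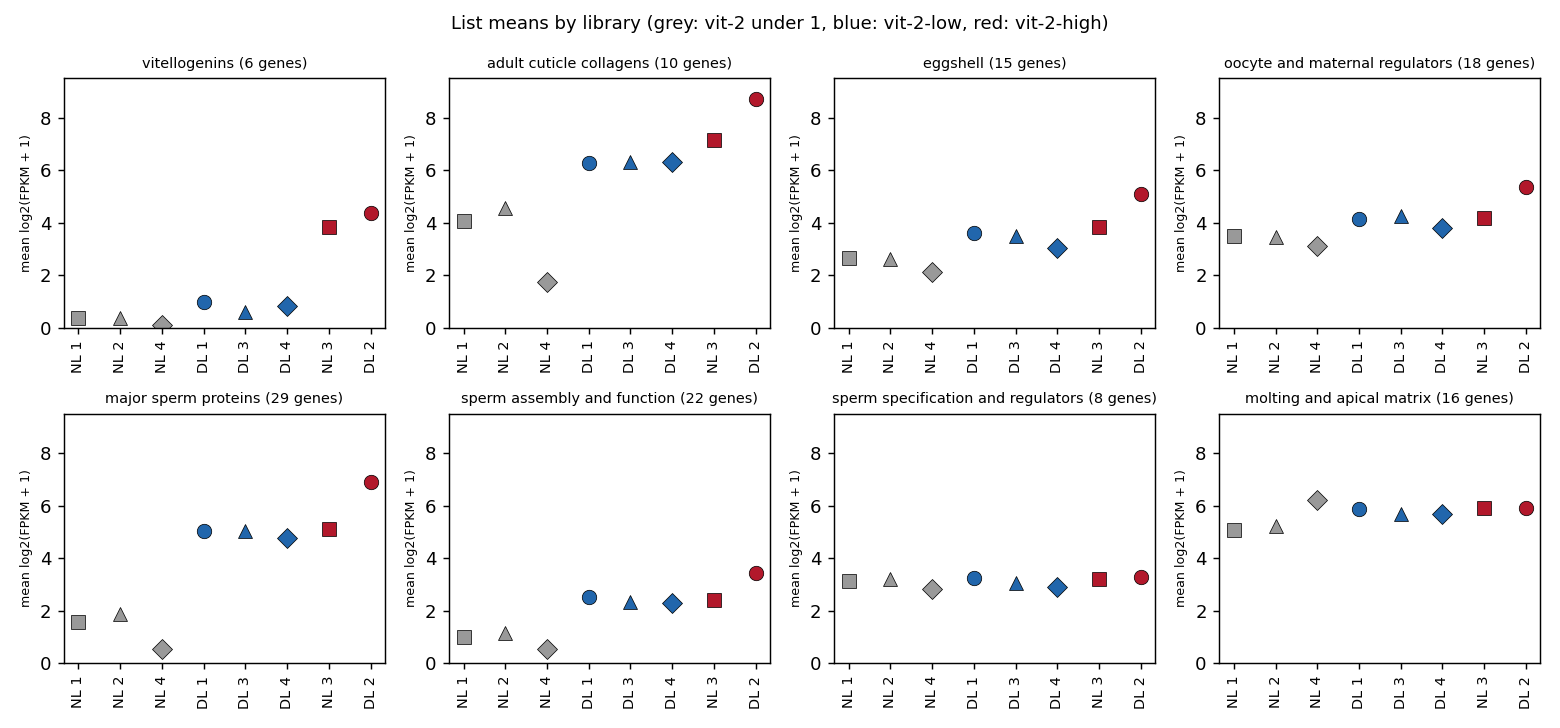
Mean log2(FPKM + 1) over the genes of 8 lists that passed the filter in each library, with the same colours as before. For vitellogenins NL 3 and DL 2 have 3.84 and 4.39 against 0.61 to 0.98 in vit-2-low, and for major sperm proteins DL 2 has 6.92 against 4.76 to 5.04.

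Molting and timing genes differed between the sides by small amounts. Of 16 molting and apical matrix genes and 16 heterochronic and molting clock genes, which control and carry out the larval transitions, 0 were higher or lower by the 2-fold rule, which few genes pass. Without overlap, 3 of the 16 molting genes were higher and 0 lower, and 5 of the 16 heterochronic genes were lower and 0 higher, beside 11.3% higher and 9.63% lower of all genes. The heterochronic genes were lin-14, lin-29, lin-46, dre-1 and nhr-25, and the widest gap among them was -0.21, at lin-14. For mlt-10, needed for molting, the values were 125 FPKM in NL 3 and 291 in DL 2, against 180.1, 141 and 158 in DL 1, DL 3 and DL 4, with NL 3 lowest and DL 2 highest of the 5. For lin-29, the zinc-finger regulator of the larva-to-adult switch, they were 17.6 FPKM in NL 3 and 16.3 in DL 2, against 21.8, 21.3 and 18.2 in DL 1, DL 3 and DL 4. Both vit-2-high libraries were below the vit-2-low libraries by a gap of -0.04. An exon of hmg-12 overlaps lin-29 on the other strand.

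The lists for other tissues held no gene past the 2-fold rule, which says nothing of genes outside these lists, such as ilys-5 and irg-5 below. By that rule, which under 1% of all genes pass in each direction, 0 genes were higher or lower among 14 vulva and uterus genes, 14 egg-laying circuit genes, 11 sheath and spermatheca genes, 19 intestine genes, 21 muscle genes, 7 fatty acid desaturases and 78 cytosolic ribosomal protein genes. Without overlap, 5 of 14 vulva and uterus genes, 3 of 11 sheath and spermatheca genes and 3 of 7 desaturases were lower in both vit-2-high libraries, beside 9.63% of all genes. The widest of these gaps was -0.52, at nhr-6, a nuclear receptor gene needed for the spermatheca. All 78 ribosomal protein genes overlapped between the sides, although their summed level ran from 108706 FPKM in DL 1 to 253485 in DL 3, both vit-2-low. Among 9 heat-shock genes DL 2 was below all vit-2-low libraries at 6 and NL 3 at 4, beside 26.9% and 21.5% of all genes. The small heat-shock gene hsp-16.2 had 92.5 FPKM in NL 3 and 45.3 in DL 2, against 188, 107 and 111 in DL 1, DL 3 and DL 4.

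Markers of other material were low on both sides. Of 16 early zygotic genes, 14 were below the filter and 5, including pes-10, were listed at 0 in all 8 libraries. The list summed to 51.5 and 60.4 FPKM in NL 3 and DL 2 and to 54.8 to 68.6 in the vit-2-low libraries, mostly from elt-7 and nhr-68, which worms also express after hatching. Of 15 male genes, 4 passed the filter, cwp-3 was listed at 0 in all libraries, and the sums were 36.8 and 31.9 FPKM against 30.5 to 44.3. Their part in the results was not tested.

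A few higher genes put the left-out libraries with the vit-2-high ones. For ilys-5, which encodes an invertebrate-type lysozyme (X:6533490-6536840), the values were 282 FPKM in NL 3 and 157 in DL 2, against 58.4, 48.7 and 52.8 in DL 1, DL 3 and DL 4 and 280.5, 257 and 126 in NL 1, NL 2 and NL 4. For dach-1 they were 8.98 FPKM in NL 3 and 6.08 in DL 2, against 1.71, 1.63 and 2.22 in DL 1, DL 3 and DL 4 and 9.91, 7.74 and 8.43 in NL 1, NL 2 and NL 4. At these genes it is the 3 vit-2-low libraries that stand apart, below the other 5, and an exon of T09H2.2 overlaps dach-1 on the other strand.

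The 50 lower genes mostly showed this form in the opposite direction. At 35 of the 50 the left-out NL libraries, too, were all below the lowest vit-2-low library, so DL 1, DL 3 and DL 4 were the high ones among the 8. At 13 genes the left-out libraries were all above the highest vit-2-high library. How often all genes take these positions was not counted. These 13 and the 35 share genes, such as pho-8, and some genes, such as dod-21, belong to neither. The genes included 3 fbxa genes for F-box proteins, 3 clc genes, 2 clec genes for C-type lectin domain proteins and 27 with a sequence name alone. Of the 50 genes 43 were protein coding. In lists taken after values were seen, 3 of 95 F-box A genes past the filter were lower and 0 higher. Of 102 C-type lectin genes 2 were lower and 1 higher, beside 0.347% and 0.521% of all genes. The share of clc genes was not counted.

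The widest gap was at clc-32 (V:16140313-16141171, minus strand), with 0.348 FPKM in NL 3 and 0.939 in DL 2, against 19.6, 9.36 and 8.91 in DL 1, DL 3 and DL 4 and 0.367, 1.22 and 0.452 in NL 1, NL 2 and NL 4. The gap was -2.35, and all 5 libraries outside the vit-2-low side were low. It lies beside clc-11, another lower gene. For F08G2.5 the values were 15.8 FPKM in NL 3 and 27.8 in DL 2, against 180.3, 127 and 148 in DL 1, DL 3 and DL 4 and 8.78, 11.45 and 21.2 in NL 1, NL 2 and NL 4, and for F55G11.4 they were 52.8 and 64.7 FPKM, against 322, 262 and 249 and 58.1, 45.6 and 143. NL 4 was the highest of the left-out libraries at both.

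Infection-response genes formed a group that was put together after values were seen. Of 19 CUB-like and infection-response genes, 4 were lower and none higher by the 2-fold rule, and 11 were lower without overlap, beside 9.63% of all genes. Their median difference was -2.06 in NL 3 and -0.76 in DL 2. The infection-response gene irg-5 had 20.1 FPKM in NL 3 and 20.8 in DL 2, against 50.2, 147 and 170.1 in DL 1, DL 3 and DL 4 and 13.8, 12.6 and 49.3 in NL 1, NL 2 and NL 4. For dod-21, named for its place downstream of the insulin-pathway factor DAF-16, the values were 1.28 FPKM in NL 3 and 4.46 in DL 2, against 16.7, 71.5 and 103.40 in DL 1, DL 3 and DL 4 and 1.77, 1.37 and 24.2 in NL 1, NL 2 and NL 4. At both genes DL 1 was the lowest vit-2-low library, and it did not stand clear of NL 4, which was above it at dod-21.

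For idpp-12 the pattern was of the rarer kind, with 11.6 FPKM in NL 3 and 10.4 in DL 2, against 44.1, 74.1 and 45.5 in DL 1, DL 3 and DL 4 and 45.1, 37.4 and 67 in NL 1, NL 2 and NL 4. Only NL 3 and DL 2 were low. The bZIP transcription factor gene zip-10 had 17 and 17.1 FPKM in NL 3 and DL 2, against 40.6, 36.9 and 43.1, which are even values on each side. NL 1, NL 2 and NL 4 had 11, 5.73 and 21.1, so here the vit-2-low libraries were the high ones. An exon of skp-1 overlaps zip-10 on the other strand. The acid phosphatase family gene pho-8 had 11.45 FPKM in NL 3 and 12.6 in DL 2, against 45.3, 41.3 and 44.4 in DL 1, DL 3 and DL 4 and 18.9, 15.5 and 17.8 in NL 1, NL 2 and NL 4, with the left-out libraries between the sides. The lectin gene clec-17 had 9.16 and 6.28 FPKM in NL 3 and DL 2, against 33.6, 45.1 and 41.9 and 9.65, 8 and 17.3.

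**Figure D4:**
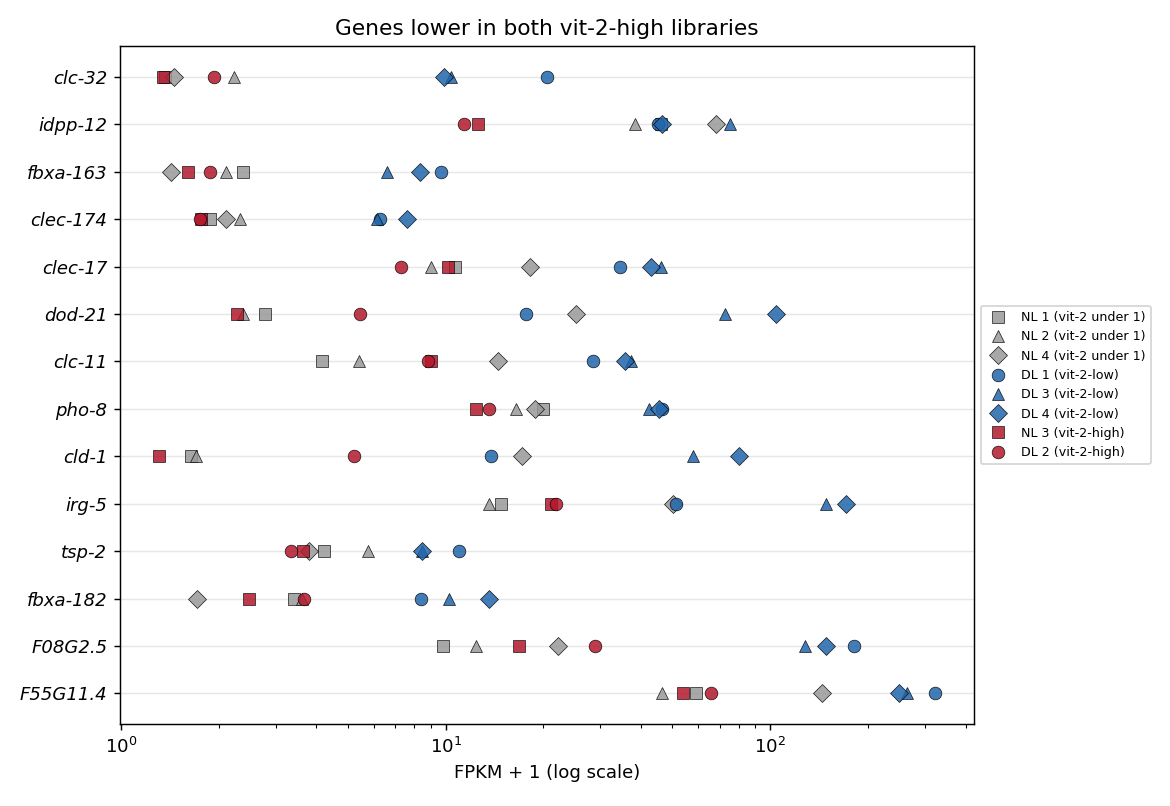
FPKM + 1 on a log axis for 14 genes counted as lower, with the same symbols. Both red points lie to the left of all blue points, and the grey left-out NL libraries lie nearer red than blue for most genes and with blue at idpp-12.

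Of the 75 higher genes 19 lie on the X chromosome (25.3%), 5 of them vit and 5 of them col genes, beside 13.4% of all genes that passed the filter, and of the 50 lower genes 1 does (2%). Chromosome IV held 22 of the higher genes (29.3%) and 15 of the lower (30.0%), beside 18.4% of all genes. These include vit-6 and piRNA loci with few reads, such as 21ur-2304 among the higher and 21ur-1296 among the lower. Chromosome V held 15 of the higher (20.0%), near its 19.4% of all genes, and 17 of the lower (34.0%). Some called genes are neighbours within 10000 bases, and a pair such as perm-4 and perm-2 or D1054.10 and ule-3 (V:10791975-10794924) is not independent evidence. These shares were not tested.

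Among the called genes were also short noncoding loci that rest on few reads. The higher genes held 8 piRNA loci, such as 21ur-2304 with 2 reads in NL 3, 2 in DL 2 and 0 elsewhere, and the lower genes held 4. A single read in so short a locus is worth several FPKM, so these calls carry a large counting error. With protein-coding genes alone, 66 genes were higher and 43 lower.

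The labelled comparison of the series, DL against NL with 4 libraries each, crosses the vit-2 sides, since NL 3 is high and so is DL 2. It shares libraries with the description above, and the values are set side by side. With limma on log2(FPKM + 1) and Benjamini-Hochberg adjustment over 14358 genes, 101 genes differed at an adjusted p of 0.05 (0.703%), 42 higher and 59 lower in DL. With the batch as a block the count was 25. Without NL 3 it was 1558, without NL 4 220, without NL 1 10 and without NL 2 12. Without DL 1, DL 2, DL 3 and DL 4 in turn it was 44, 131, 19 and 15. Of the 75 genes higher in vit-2-high, 68 were tested and 0 passed by this limma test, with 6 at an unadjusted p below 0.05, beside 20.6% of all tested genes. The 75 were picked for being high in NL 3 and DL 2, which are in different groups. The 0 and the 6 are therefore not independent of the choice either. Of the 50 lower genes, 49 were tested and 0 passed by limma, with 29 at an unadjusted p below 0.05, beside the same 20.6%. These were picked for being high in 3 of the 4 DL libraries, so the 29 are not independent of the choice.

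For col-119 the limma difference, DL minus NL, was -0.04 (SE 1.33, adjusted p = 0.992 with n = 4 per group), with group means of 9.80 and 8.398 FPKM. For col-19 it was 1.28 (SE 1.36, limma adjusted p = 0.648), for perm-2 1.88 (SE 1.07, limma adjusted p = 0.367). Each group held 1 vit-2-high library. For ilys-5 the difference was -1.68 (SE 0.402, limma adjusted p = 0.0933), and for clc-32 it was 2.36 (SE 0.621, limma adjusted p = 0.101). For the major sperm protein gene msp-31 it was 3.40 (SE 0.945, limma adjusted p = 0.105). None of these 6 genes passed the threshold of 0.05.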

How the data were processed

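PolyA-selected RNA of whole worms was sequenced after preparation with a NEBNext Ultra kit, per the labels' protocols, which does not mark strand. The deposited values are FPKM computed by the authors, per the file headers, for 47087 loci in 8 libraries. The submitters' processing notes name the aligner HISAT2, the counter HTSeq and the build WBcel235. Their versions, the annotation and the strand setting were not given in the sources used here. Symbols, coordinates and exon lengths came from the Ensembl release 115 annotation of WBcel235, which matched 44113 loci.

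With those lengths at least 99.5% of values per library gave whole reads within 0.05 read, and the recovered reads were used for depth and noise only. Genes whose mean level in the 5 libraries reached 1 FPKM entered, and levels were taken as log2(FPKM + 1), which understates changes of low genes. A gene below 1 FPKM on one side could thus enter through the other side alone. A gene was called higher or lower when the nearest libraries of the 2 sides differed by at least 2-fold on FPKM + 1. Genes named were the 12 widest gaps per direction with at least 5 FPKM in every library of the higher side, a symbol and at most 3 per name stem, up to 4 called genes and the 1 with the highest mean of each list, and 10 further genes set by name. Other genes in the text, such as bli-1, puf-5, mlt-10, zip-10, ule-2, col-122, col-178, col-20, F08G2.5 and F55G11.4, were chosen after their values were seen. The libraries, members and lists were chosen with earlier results of these data known, and 8 lists after seeing the values. DL and NL were compared with limma 3.58.1 in R 4.3.3 (trend, two-sided, Benjamini-Hochberg, threshold 0.05). The code was tested on simulated data. Tables and plots were made in Python 3.11.15 with numpy 2.4.6, pandas 2.3.3 and matplotlib 3.10.9.

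Replicate numbers mark batches in the labels, which pairs libraries of equal number. Deviations from the mean of the own group, over 14358 genes, correlated within a pair at -0.00718, -0.188, -0.318 and 0.19 for batches 1 to 4. No pair of libraries within a group agreed within sampling noise, with a chi-square per gene of at least 8.04. The FPKM sums ran from 661483 in DL 1 to 969531 in DL 3, and the total behind them was 1.156 and 0.936 times the recovered reads, and no source explains this scaling.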

Additional observations from a re-analysis of the deposited data

Results flagged for a closer look

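In 46 sets of 4 libraries (a list mean within DL or NL), 4 had a highest or lowest library whose distance to its nearest neighbour exceeded Dixon's critical share of the whole range. Chance gives about 1 in 20 such sets. The values are means of log2(FPKM + 1) over each list's genes.

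In NL 3 the vitellogenins had 3.84, against 0.09 to 0.39 in the other NL libraries. In DL 2 they had 4.39, against 0.61 to 0.98 in the other DL libraries. Both follow from the choice of libraries by vit-2. In DL 2 the adult cuticle collagens had 8.73, against 6.28 to 6.33, and the major sperm proteins had 6.92, against 4.76 to 5.04.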

How the results depend on the processing

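For the 75 genes higher in both vit-2-high libraries, the count was 45 with a mean of at least 5 FPKM, 1625 with any gap and 22 with a 4-fold gap. Leaving out 1 of the 5 libraries gave 94 to 745 higher genes, with 71 of the 75 shared without NL 3 and 65 without DL 2. The rule is easier to pass with fewer libraries, so called genes can then drop out only through the filter. For the 50 lower genes, the count was 81 with a pseudocount of 0.1, 1386 with any gap, 6 with a 4-fold gap and 13 when the left-out NL libraries had to lie on the vit-2-low side, a rule added after seeing the data. Leaving out 1 library, which eases the rule here too, gave 70 to 174 lower genes. Rescaling to equal FPKM sums gave 73 higher and 47 lower genes, of which 66 and 39 were shared, and moved the median of all genes from 0.03 to 0.09 on the log2 scale. The comparison of DL with NL called 101 genes, 25 with the batch as a block (the numbers pair the libraries), 33 with no filter, and 10 to 1558 when 1 library was left out. The cause of these shifts was not tested, apart from the smaller or larger set of genes or libraries that the alternative itself sets. Among single genes and list medians, 889 of 961 values moved by less than the spread and 72 by more. Signs changed in 38 of the 961 values, over 23 genes and lists. None was a gene counted as higher or lower, but the rule already sets the sides of such a gene apart. Leaving out a library cannot turn its sign, so this says nothing about stability. Among the 23 genes and lists, msp-10 (0.65), sperm assembly (0.53) and small sperm proteins (0.49) turned to -0.49, -0.05 and -0.50 without DL 2. The piRNA loci (-0.20) turned to 0.74 with a mean of at least 5 FPKM and to 1.26 without DL 1. With 2 libraries against 3, and 1 of the 2 from NL, the values describe these libraries.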
